A study of Mus musculus with 12 samples.

Results

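The aryl hydrocarbon receptor, its partner, its repressor and the enzymes it is known to induce were followed in the proximal jejunum of mice with or without TLR2 and with or without methotrexate. Of 8 listed genes (Cyp1a1, Cyp1a2, Cyp1b1, Ahr, Ahrr, Arnt, Tiparp and Nqo1), 7 had a probe set paired with that gene alone. They were read by 8 probe sets, 2 of them for Cyp1b1, among 18820 genes and 35556 probe sets in all. The only probe set paired with Tiparp, which encodes an ADP-ribosyltransferase that restrains the receptor, carries several gene symbols, so no value is given for it. Members were chosen by their RMA signals in all 4 groups, with the genotype and methotrexate differences of Cyp1a1 and Cyp1b1 known. Their levels and differences are therefore a description, and no p-value is given for them.

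Each of 12 mice gave 1 Affymetrix array, 3 mice to a group. The groups were TLR2 knockout with methotrexate, wild type with methotrexate, untreated knockout and untreated wild type. Methotrexate, an antifolate drug that injures the gut lining, was injected into the peritoneum (40 mg per kg each day over 4 days), and the treated mice were killed on day 7. All knockout mice were B6.129-Tlr2tm1Kir/J, which carry the disrupted Tlr2 in every cell, and all wild-type mice were C57BL6/J, with ages not given in the labels. Loss of TLR2 cannot be told apart from other differences between these strains, and whether the untreated mice were injected or killed on the same day is not recorded.

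Signals are log2 values from RMA, a method that corrects, normalises and summarises probes, and 1 unit is a doubling. Array medians lay between 4.37 and 4.56 and the 25th percentile of each array between 2.87 and 3.05, so readings near 3 are at the dim end of the arrays. In the untreated groups, the mean of 10 enterocyte markers (10 of 10 measured) was 11.62 to 11.79 in knockout and 11.77 to 11.85 in wild-type mice, as the tissue label calls for. Tlr2 itself read 5.28 to 6.18 in treated knockout, 4.49 to 4.65 in treated wild-type, 4.36 to 5.02 in untreated knockout and 4.37 to 4.65 in untreated wild-type mice. Its signal thus does not check the genotype, since the position of the probe set relative to the disrupted part is not known here. Pancreatic acinar genes (9 of 12 measured) averaged 11.50 to 12.34 in 7 arrays and 3.79 to 5.36 in the other 5. The 7 were 2 of 3 treated knockout, 1 of 3 treated wild-type, 2 of 3 untreated knockout and 2 of 3 untreated wild-type arrays. The other 5 were replicate 1 of every group and replicate 3 of the treated wild type.

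The receptor is a transcription factor that waits in the cytosol, bound to HSP90 and co-chaperones, until it meets a ligand such as a plant indole, a microbial tryptophan product or a combustion hydrocarbon. It then enters the nucleus, pairs with ARNT and binds the xenobiotic response element, whose core reads GCGTG, near genes such as Cyp1a1. The induced CYP1 enzymes oxidise many of the ligands, and the repressor AHRR competes for ARNT, so both limit the response. In the gut, Cyp1a1 is known as an epithelial read-out of dietary and microbial ligands, whereas Cyp1b1 is known from fibroblasts and other mesenchymal cells.

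The windows from 250 bases before to 50 bases after the annotated start are shown for Cyp1a1 and Cyp1b1, the targets the comparison is about, and for Ahrr, the repressor. Capitals mark GCGTG on either strand, so CACGC is the same core read from the opposite strand. The sequences are from RefSeq (GRCm38.p6), written 5′ to 3′ on the gene's strand: chr9:57697363-57697662 on the plus strand for Cyp1a1, chr17:79715012-79715311 on the minus strand for Cyp1b1 and chr13:74292282-74292581 on the minus strand for Ahrr.
Cyp1a1: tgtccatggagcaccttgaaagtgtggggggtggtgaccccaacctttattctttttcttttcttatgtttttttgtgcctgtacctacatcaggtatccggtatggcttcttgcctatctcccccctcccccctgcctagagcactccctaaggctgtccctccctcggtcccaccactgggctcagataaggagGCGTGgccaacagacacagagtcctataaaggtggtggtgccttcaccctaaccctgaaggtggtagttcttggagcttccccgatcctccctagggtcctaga
Cyp1b1: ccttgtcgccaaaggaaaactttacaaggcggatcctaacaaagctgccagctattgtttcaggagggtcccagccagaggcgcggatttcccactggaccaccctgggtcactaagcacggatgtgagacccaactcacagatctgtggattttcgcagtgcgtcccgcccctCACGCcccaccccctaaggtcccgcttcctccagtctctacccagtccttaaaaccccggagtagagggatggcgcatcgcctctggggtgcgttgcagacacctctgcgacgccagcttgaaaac
Ahrr: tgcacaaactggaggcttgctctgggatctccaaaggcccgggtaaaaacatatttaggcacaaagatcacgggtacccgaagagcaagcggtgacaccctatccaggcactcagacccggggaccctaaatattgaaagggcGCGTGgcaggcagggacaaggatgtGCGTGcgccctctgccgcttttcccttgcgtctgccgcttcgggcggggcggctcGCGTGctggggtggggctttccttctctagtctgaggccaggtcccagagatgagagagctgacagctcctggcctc

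Cyp1a1 and Cyp1b1 each held 1 core in this window, its first base at -54 and -76 relative to the start. Ahrr held 3, at -107, -82 and -27, and no matches overlapped. Among 32851 windows of this length in the RefSeq table, 32.4% held at least 1 core and 3.91% held 3 or more. Arnt held 1 core, while Cyp1a2 and Nqo1 held none. The antioxidant response element, searched as TGACNNNGC on both strands, is bound by NRF2, the other known activator of Nqo1. It had no match in the Nqo1 window, 2 in that of Arnt, and at least 1 in 12.4% of all windows. A match is only a run of letters, and enhancers farther upstream lie outside these windows.

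Cyp1a1, which encodes an inducible enzyme that clears many receptor ligands, was low in every knockout array and high in every wild-type array. It read 2.88, 3.14 and 3.66 in treated knockout mice. In treated wild-type mice it read 6.42, 7.09 and 7.37. The untreated knockout mice gave 3.20, 3.78 and 3.59, and the untreated wild-type mice 5.79, 5.45 and 5.97. No knockout array reached the lowest wild-type array, with or without the drug. Untreated knockout mice were lower than untreated wild-type mice by a log2 difference of -2.22 ± 0.27 (limma's standard error, as after every log2 difference below), or 4.64-fold. After methotrexate the difference was -3.73 ± 0.27, or 13.3-fold. Knockout and wild-type arrays did not overlap in 46.2% of all genes after methotrexate and in 13.1% without it.

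The methotrexate difference of Cyp1a1 separated the arrays in wild-type mice and not in knockout mice. It was -0.29 ± 0.27 in knockout mice, whose treated and untreated arrays overlap and lie at the dim end of the arrays, where a fall is hard to see. In wild-type mice it was 1.22 ± 0.27, or 2.34-fold, and treated and untreated arrays did not overlap. The group means of Cyp1a1 therefore ran from treated wild type (6.96 ± 0.49, SD, n = 3) through untreated wild type (5.74 ± 0.26) and untreated knockout (3.52 ± 0.30) to treated knockout (3.23 ± 0.40). Among neighbours in that order, only the knockout groups overlapped. Treated and untreated arrays did not overlap in 22.6% of all genes in wild-type mice and in 44.6% in knockout mice. Of the 7 members, 4 were separate in this way in wild-type and 3 in knockout mice.

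Cyp1b1, the CYP1 enzyme that also oxidises oestrogens and retinoids, stood apart in the treated knockout alone. Its brighter probe set read 9.05, 9.24 and 9.17 in treated knockout mice. It read 4.68, 4.82 and 4.71 in treated wild-type mice, 4.52, 3.76 and 3.80 in untreated knockout mice and 4.61, 4.44 and 4.27 in untreated wild-type mice. The 3 treated knockout arrays lie within 0.2 of each other and far above the other 9. The methotrexate difference was 5.13 ± 0.18 in knockout mice, or 34.9-fold, and 0.30 ± 0.18 in wild-type mice. Treated knockout mice were above treated wild-type mice by 4.42 ± 0.18, or 21.4-fold, and untreated knockout mice differed from untreated wild-type mice by -0.41 ± 0.18, with overlapping arrays, or by -0.66 without replicate 1 of the untreated knockout. In the order of means, the treated wild type (4.74 ± 0.08) came second and did not overlap the untreated wild type (4.44 ± 0.17), which overlapped the untreated knockout (4.03 ± 0.43).

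The dimmer Cyp1b1 probe set showed the same high group on a smaller scale. It read 3.75, 3.58 and 4.39 in treated knockout mice, against 2.60 to 2.66 in treated wild-type, 2.61 to 2.76 in untreated knockout and 2.80 to 2.91 in untreated wild-type mice. Its methotrexate difference was 1.20 ± 0.17 in knockout mice and -0.21 ± 0.17 in wild-type mice, where the sign is opposite to that of the brighter probe set. Averaging both probe sets gave 3.16 for knockout mice. The size of the Cyp1b1 difference in knockout mice thus depends on the probe set, at 34.9-fold for the brighter and 2.29-fold for the dimmer. Its direction there does not.

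**Figure D1:**
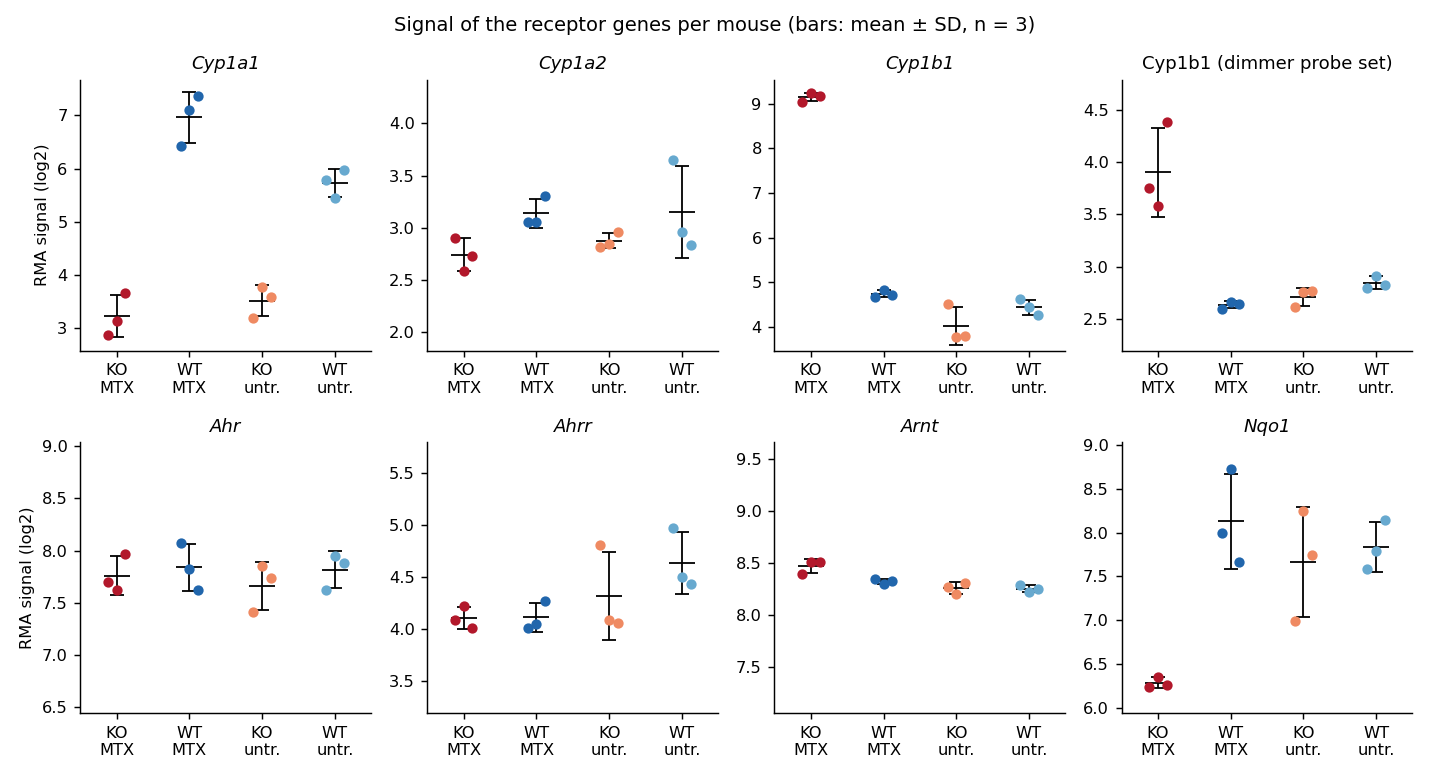
RMA signal (log2) of each of the 8 probe sets in each mouse, by group; bars are the mean ± SD of 3 mice and each panel has its own axis range. Cyp1a1 lies below 4 in all 6 knockout mice and above 5 in all 6 wild-type mice, while Cyp1b1 (brighter probe set) lies above 9 in the 3 treated knockout mice and below 5 in the other 9.

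Set against each other within an array, Cyp1b1 and Cyp1a1 moved apart with opposite sign in the 2 genotypes after methotrexate. The change of Cyp1b1 minus that of Cyp1a1 was 5.42 in knockout mice (SD over arrays, pooled within groups, 0.57) and -0.93 in wild-type mice (SD 0.41). In the treated knockout against the treated wild type this difference was 8.15 (SD 0.41), and in the untreated genotypes 1.80 (SD 0.57). In all 4 comparisons the arrays of the 2 groups did not overlap on this measure. These are differences of changes. The levels of different probe sets cannot be set against each other.

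**Figure D2:**
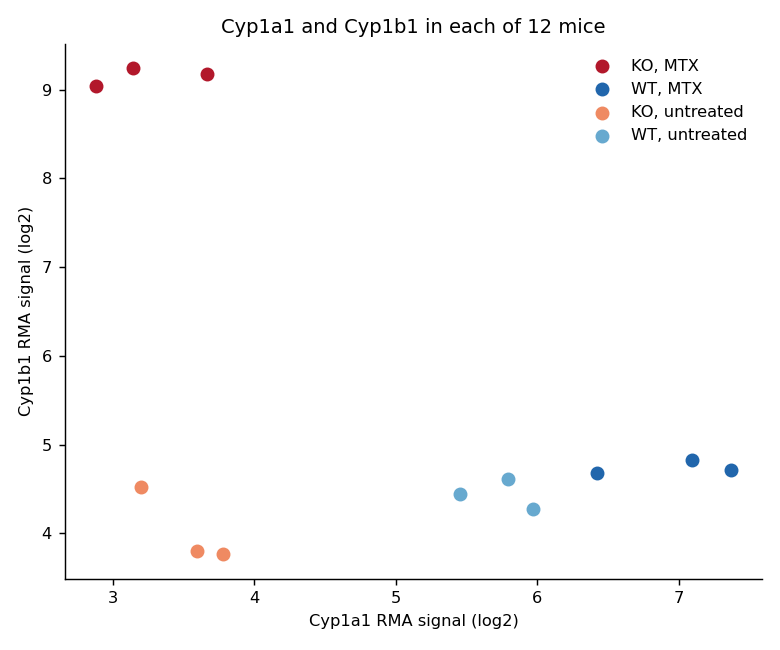
Cyp1b1 (vertical, log2 RMA signal, brighter probe set) against Cyp1a1 (horizontal, log2 RMA signal), 1 point per mouse, coloured by group. The treated knockout mice sit alone at the top left, the untreated knockout mice at the bottom left, and the wild-type mice along the bottom, with the treated ones furthest right.

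Cyp1a2, which lies next to Cyp1a1 on chromosome 9 with no protein-coding gene between them and is known mainly as a liver enzyme, read near the dim end in every array. Its values were 2.90, 2.59 and 2.73 in treated knockout, 3.06, 3.06 and 3.30 in treated wild-type, 2.82, 2.85 and 2.96 in untreated knockout and 3.65, 2.96 and 2.84 in untreated wild-type mice. Its largest difference was -0.40 ± 0.19 between treated knockout and treated wild type. Without replicate 1 of the untreated wild type, which read 3.65, the methotrexate difference in wild-type mice was 0.24 in place of -0.01.

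Nqo1, a quinone reductase that both the receptor and NRF2 induce, was lower in the treated knockout. It read 6.24, 6.36 and 6.27 there, against 7.99, 8.73 and 7.66 in treated wild-type mice. Untreated knockout mice gave 7.00, 8.24 and 7.75, and untreated wild-type mice 7.58, 7.79 and 8.14. The 3 treated knockout arrays lay below all others, and the other 3 groups overlapped. The difference was -1.37 ± 0.31 for methotrexate in knockout mice, 0.29 ± 0.31 for methotrexate in wild-type mice, -1.84 ± 0.31 between treated genotypes and -0.18 ± 0.31 between untreated genotypes. The wild-type value was -0.01 without replicate 2 of the treated wild type, 0.52 without its replicate 3 and 0.76 in the arrays with pancreatic RNA alone. The untreated genotype value was 0.15 without replicate 1 of the untreated knockout and -0.47 without its replicate 2. In each of the 4 groups the lowest Nqo1 reading came from an array without pancreatic RNA. Its treated genotype difference over the 7 arrays with pancreatic RNA was -2.42, and the part of that RNA in the Nqo1 values was not tested.

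Ahr, the receptor itself, varied as much within groups as between them. It read 7.70, 7.62 and 7.97 in treated knockout, 8.07, 7.82 and 7.63 in treated wild-type, 7.41, 7.85 and 7.73 in untreated knockout and 7.62, 7.95 and 7.89 in untreated wild-type mice. All 4 groups overlapped, and the genotype difference was -0.08 ± 0.16 in treated and -0.15 ± 0.16 in untreated mice. Its methotrexate difference was 0.10 ± 0.16 in knockout mice and 0.02 ± 0.16 in wild-type mice.

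Arnt, the partner that the receptor needs to bind DNA, had the narrowest spread of the members. It read 8.39, 8.51 and 8.51 in treated knockout mice, against 8.30 to 8.35 in treated wild-type, 8.20 to 8.31 in untreated knockout and 8.22 to 8.29 in untreated wild-type mice. The treated knockout arrays lay above all others by a small margin. The methotrexate difference was 0.21 ± 0.08 in knockout and 0.07 ± 0.08 in wild-type mice, and neither passed the threshold. With quantile normalisation the knockout value was 0.28 and that between treated genotypes 0.24, in place of 0.14 ± 0.08, and Arnt was called in both. Arnt lies on chromosome 3, as does Tlr2, with 250 protein-coding genes between them, and its untreated genotype difference was 0.01 ± 0.08.

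Ahrr, the repressor, read around the array medians (4.37 to 4.56) throughout, and neighbouring groups in the order of its means overlapped. It read 4.08, 4.22 and 4.01 in treated knockout, 4.01, 4.05 and 4.27 in treated wild-type, 4.80, 4.08 and 4.06 in untreated knockout and 4.97, 4.49 and 4.43 in untreated wild-type mice. Its difference was -0.01 ± 0.20 between treated genotypes and -0.32 ± 0.20 between untreated genotypes. For methotrexate it was -0.21 ± 0.20 in knockout mice, or 0.03 without replicate 1 of the untreated knockout, and -0.52 ± 0.20 in wild-type mice. The treated and untreated wild-type groups are not neighbours in the order of means, and their Ahrr arrays did not overlap, as in 22.6% of all genes. The 2 highest untreated readings, 4.97 and 4.80, came from the 2 untreated arrays without pancreatic RNA. Whether that RNA plays a part in the Ahrr values was not tested.

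**Figure D3:**
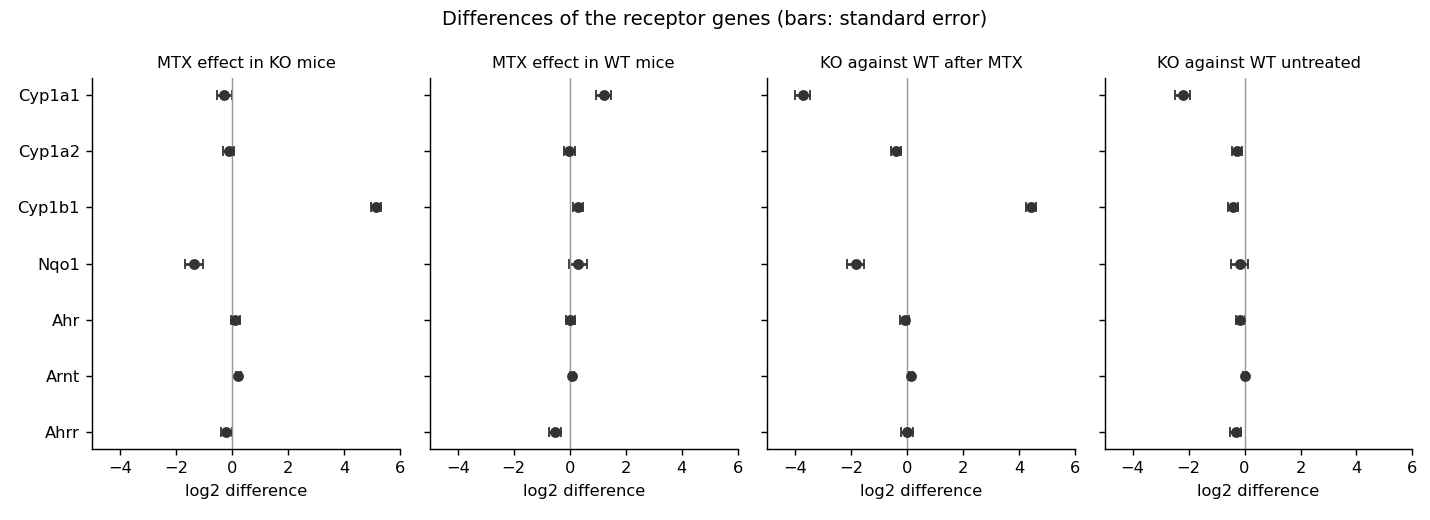
Log2 difference of each member (brighter probe set for Cyp1b1) in 4 comparisons, with bars for limma's standard error. Cyp1a1 is below 0 in both genotype comparisons (-3.73 and -2.22), Cyp1b1 is far above 0 in both comparisons that hold the treated knockout, and Ahr, Arnt and Ahrr stay within about 0.5 of 0.

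A gene was called where limma's Benjamini-Hochberg adjusted p over all 18820 genes was under 0.05, and the member counts are descriptions. The counts and adjusted p-values of the lists below are descriptions too, since the lists were chosen with earlier results of these data known. For methotrexate in knockout mice 2 of 7 members were called, Cyp1b1 higher and Nqo1 lower, where 34.8% of all genes were called, 18.8% higher and 16% lower. The median difference of the 7 was -0.14, and that of all genes -0.02. For methotrexate in wild-type mice 0 of 7 were called, where 0.0744% of all genes were, 0.0425% higher and 0.0319% lower, and 11.7% of all genes had an unadjusted p under 0.05. There, 1 member was called with array weights, and 1 in the 7 arrays with pancreatic RNA. Between treated genotypes 3 of 7 were called, Cyp1b1 higher and Cyp1a1 and Nqo1 lower, where 36.9% of all genes were, 20.2% higher and 16.8% lower. Between untreated genotypes 1 of 7 was called, Cyp1a1 lower, where 0.0106% of all genes were, 0.00531% higher and 0.00531% lower.

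The untreated genotypes thus had 2 called genes in all, Cyp1a1 and Mmrn1, which encodes a platelet and endothelial protein and was higher in the knockout by 2.44 ± 0.15 (named after its values were seen). The call of Cyp1a1 was close to the threshold and was lost when any of 8 of the 12 arrays was left out, including arrays of treated mice that enter only the estimate of the spread. The difference itself stayed between -2.36 and -2.05 when each array was left out in turn, and was -2.02 in the arrays with pancreatic RNA alone. For the interaction, which is the methotrexate difference in knockout minus that in wild-type mice, 3 of 7 members were called, where 23.8% of all genes were, 11.8% higher and 12% lower. It was -1.52 ± 0.38 for Cyp1a1, 4.83 ± 0.26 for Cyp1b1 and -1.66 ± 0.44 for Nqo1.

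Cell type markers moved widely in the treated knockout. For methotrexate, 34.8% of all genes were called in knockout mice, 18.8% higher and 16% lower, and 0.0744% in wild-type mice. In whole tissue, fewer cells of a type and less RNA per cell cannot be told apart. All 10 enterocyte markers fell after methotrexate in knockout mice, with a median of -3.33, and 0 of 10 were called in wild-type mice. Lct, which encodes lactase, fell by 7.81 ± 0.35 (limma adjusted p = 4.52e-08), and the sucrase gene Sis by 5.51 ± 0.64. The mean over the 10 was 6.72 to 9.03 in treated knockout and 11.59 to 11.94 in treated wild-type mice. Nqo1 was low in the same arrays. Between untreated genotypes, where the Cyp1a1 difference was -2.22, 0 of 10 enterocyte markers were called and their median difference was -0.08. Of all genes, 0.0106% were called there. The part of enterocytes in the Cyp1a1 and Nqo1 values was not tested.

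All 10 fibroblast markers rose after methotrexate in knockout mice, with a median of 2.01, and 0 of 10 were called in wild-type mice. Of all genes, 18.8% were called higher after methotrexate in knockout mice. The platelet-derived growth factor receptor gene Pdgfrb rose by 2.33 ± 0.10 (limma adjusted p = 4.24e-08), the collagen genes Col1a1 by 2.28 ± 0.13 and Col3a1 by 2.25 ± 0.18. The mean over the list was 9.21 to 9.32 in treated knockout and 7.43 to 7.53 in treated wild-type mice, and the 3 treated knockout arrays were the same that held high Cyp1b1. The difference of Cyp1b1 was 5.13 for its brighter probe set and 1.20 for its dimmer probe set. Macrophage markers rose in 8 of 8 genes, with a median of 1.59, among them the mannose receptor gene Mrc1 (3.85 ± 0.28) and the scavenger receptor gene Cd163 (3.48 ± 0.19). Endothelial markers rose in 7 of 8, with a median of 1.14, led by Cdh5 (1.61 ± 0.11), which encodes vascular cadherin. The part of any of these cell types in the Cyp1b1 values was not tested.

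After methotrexate in knockout mice 16% of all genes were called lower and 18.8% higher. Genes of group 3 innate and gamma-delta lymphocytes, which are known to depend on the receptor in the gut, fell there in 4 of 5 measured members. The interleukin-7 receptor gene Il7r, named after its values were seen, rose by 1.37 ± 0.37. The 4 that fell include the granzyme gene Gzmb (-2.77 ± 0.25), Gzma (-2.34 ± 0.25) and Cd7 (-2.19 ± 0.26). In wild-type mice Cd7 was called lower, by a difference of -1.74 ± 0.26 (limma adjusted p = 0.0499), a call lost in 15 of 23 alternatives. Gzmb (-1.48 ± 0.25, adjusted p = 0.0647), Gzma (-1.38 ± 0.25, adjusted p = 0.0757) and Itgae (-0.77 ± 0.14, adjusted p = 0.0720) did not pass there, and with pancreatic RNA as a block 2 of the 5 were called lower. The mean over the list was 6.25 to 6.42 in untreated knockout and 6.93 to 7.10 in untreated wild-type mice, with 0 of 5 called and a median difference of -0.80. It was thus lower in the untreated knockout without overlap, beside the lower Cyp1a1, and its part in the Cyp1a1 values was not tested.

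**Figure D4:**
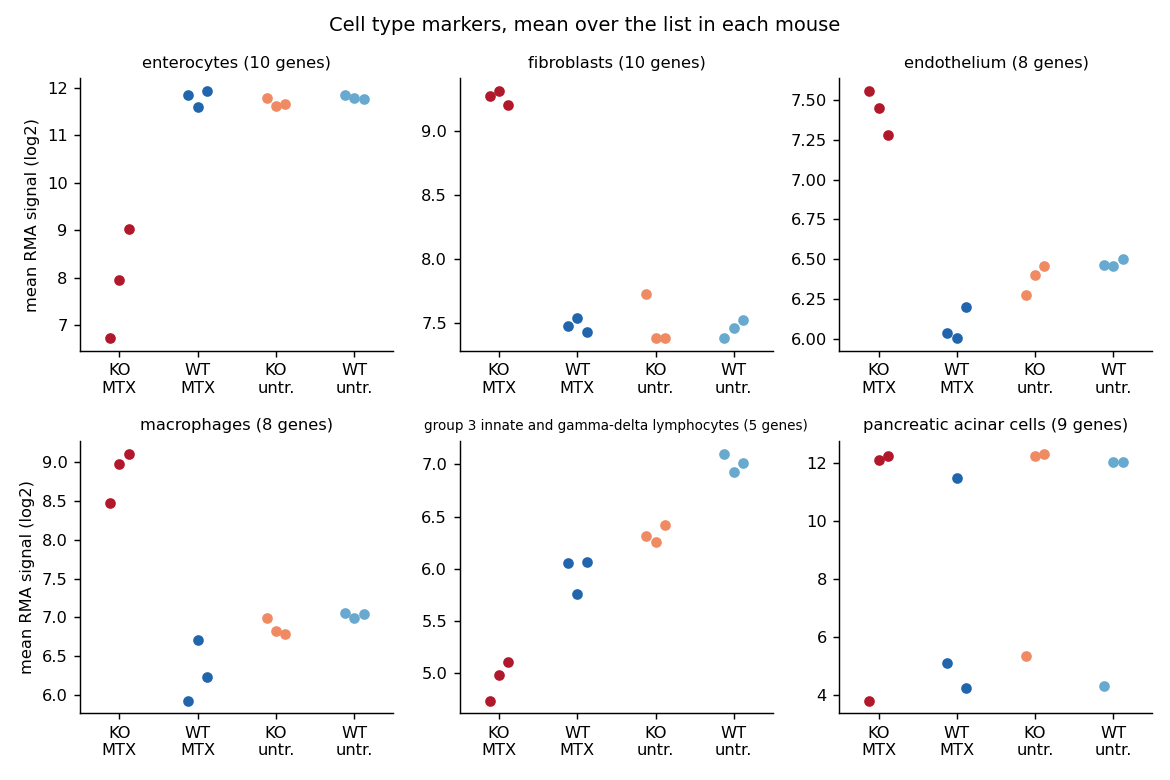
Mean RMA signal (log2) over each list of cell type markers in each mouse, by group; each point is 1 mouse and each panel has its own axis range. Enterocyte markers are low and fibroblast, endothelial and macrophage markers high in the 3 treated knockout mice, and the acinar markers split the arrays into 7 above 11 and 5 below 6.

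Of 6 measured genes of the receptor's complex (8 listed), 1 rose and 1 fell after methotrexate in knockout mice, where 34.8% of all genes were called, and 0 were called in wild-type mice. The median of the 6 in knockout mice was 0.43. Hif1a, a hypoxia factor that also pairs with ARNT, rose by 1.12 ± 0.21 (limma adjusted p = 0.00141), and between treated genotypes it was also called higher (0.81 ± 0.21). The kinase gene Src fell by 0.45 ± 0.14 (adjusted p = 0.0253), a call lost without any one of replicates 1 and 2 of the treated knockout and 1 and 3 of the untreated knockout, and in 2 other alternatives, with a difference of -0.33 without replicate 1 of the treated knockout. Hsp90aa1, a chaperone of the receptor, differed by 0.55 ± 0.20 and did not pass (adjusted p = 0.0551).

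Other genes reported as receptor targets went both ways. Of 7 measured (11 listed), 2 rose and 2 fell after methotrexate in knockout mice, where 34.8% of all genes were called, 0 were called in wild-type mice, and the median was -0.08. Cyp2s1, an epithelial cytochrome, read 5.73, 5.60 and 5.36 in treated knockout mice, against 9.46, 9.15 and 9.25 in treated wild-type mice. It read 9.38, 8.96 and 8.86 in untreated knockout and 9.09, 9.03 and 8.87 in untreated wild-type mice, so that, unlike Cyp1a1, it was low in the treated knockout only. It fell by 3.50 ± 0.15 (limma adjusted p = 3.81e-08). Ereg, which encodes the growth factor epiregulin, read 10.28, 10.11 and 10.32 in treated knockout mice, against 6.05, 5.50 and 5.71 in untreated knockout mice, and rose by 4.49 ± 0.29 (adjusted p = 4.72e-07). In wild-type mice Ereg read 5.19, 6.57 and 5.97 with methotrexate, against 5.02, 4.76 and 5.29 untreated, a difference of 0.89 ± 0.29 that did not pass (adjusted p = 0.284).

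The xanthine oxidase gene Xdh fell by 1.31 ± 0.21 in knockout mice (limma adjusted p = 0.000392). The amino acid transporter gene Slc7a5 rose by 2.34 ± 0.72 (adjusted p = 0.0261), with 9.52, 10.11 and 10.45 in treated and 6.21, 8.19 and 8.67 in untreated knockout mice. Its lowest readings in both groups came from the arrays without pancreatic RNA. The call of Slc7a5 was lost with trended robust variance and without replicate 2 or 3 of the treated knockout. It was also lost without replicate 1 of the untreated knockout, where the difference was 1.60. Aldh3a1, an aldehyde dehydrogenase of the classic receptor battery, differed by -0.08 ± 0.14 and did not pass. In the interaction, Cyp2s1 (-3.79 ± 0.22), Xdh (-1.001 ± 0.290) and Ereg (3.60 ± 0.40) were called, where 23.8% of all genes were. The call of Xdh was lost without any one of 5 arrays and with quantile normalisation. Between treated genotypes 2 of the 7 were higher and 2 lower, where 20.2% of all genes were higher and 16.8% lower. Between untreated genotypes 0 were called, where 0.0106% of all genes were.

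Enzymes of tryptophan breakdown make some receptor ligands. Of 10 measured (14 entries listed, older symbols included), 3 fell and 0 rose after methotrexate in knockout mice, with a median of -0.01, where 34.8% of all genes were called (16% lower), and 0 were called in wild-type mice. Ido1, which opens the kynurenine route, read 4.60, 4.29 and 4.82 in treated knockout mice, against 7.03, 7.10 and 6.51 in untreated knockout mice, and fell by 2.31 ± 0.48 (limma adjusted p = 0.00285). In wild-type mice Ido1 differed by -2.29 ± 0.48 without passing (adjusted p = 0.125), and its interaction was -0.02 ± 0.68. Kyat1, a kynurenine aminotransferase, fell by 1.34 ± 0.21 in knockout mice, with an interaction of -1.60 ± 0.30 (adjusted p = 0.00212). The serotonin synthesis gene Tph1 fell by 0.91 ± 0.31, a call lost in 7 of 23 alternatives, 6 of them with 1 array left out, and -0.56 without replicate 1 of the treated knockout. Between treated genotypes 2 of the 10 were called lower, Kyat1 (-1.24 ± 0.21) and Tph1 (-0.90 ± 0.31), where 16.8% of all genes were. The call of Tph1 was lost there in 5 of 23 alternatives. Of the 5 receptor-dependent lymphocyte genes listed, Il23r, Il17a and Gpr15 were measured, 0 were called in any comparison, and each differed by less than 0.1 after methotrexate in knockout mice.

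NRF2, the second route to Nqo1, gave no uniform picture. Of 8 genes, 3 rose and 3 fell after methotrexate in knockout mice, where 34.8% of all genes were called, and 0 were called in wild-type mice or between untreated genotypes. The cystine carrier gene Slc7a11 rose by 2.86 ± 0.34 (limma adjusted p = 4.99e-05) and the haem oxygenase gene Hmox1 by 2.99 ± 0.45. Gclm, the modifier subunit of glutathione synthesis, fell by 0.71 ± 0.15 and Srxn1, a sulfiredoxin, by 0.72 ± 0.17. Between treated genotypes 3 of the 8 were called higher and 4 lower, where 20.2% of all genes were higher and 16.8% lower. Among the 4 lower were Keap1, which encodes the inhibitor of NRF2 (-0.36 ± 0.13, limma adjusted p = 0.0458), a call lost in 14 of 23 alternatives, and Srxn1, lost in 2. The interaction called 23.8% of all genes. Of this list it called Slc7a11 (2.83 ± 0.48) and Hmox1 (3.00 ± 0.63) higher, and Nfe2l2, which encodes NRF2 (-1.03 ± 0.24), and Gclm (-0.67 ± 0.22) lower. The call of Gclm in the interaction was lost in 10 of 23 alternatives, 7 of them with 1 array left out. Nqo1, at -1.37 in knockout mice, had the sign of the genes of this list that fell.

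**Figure D5:**
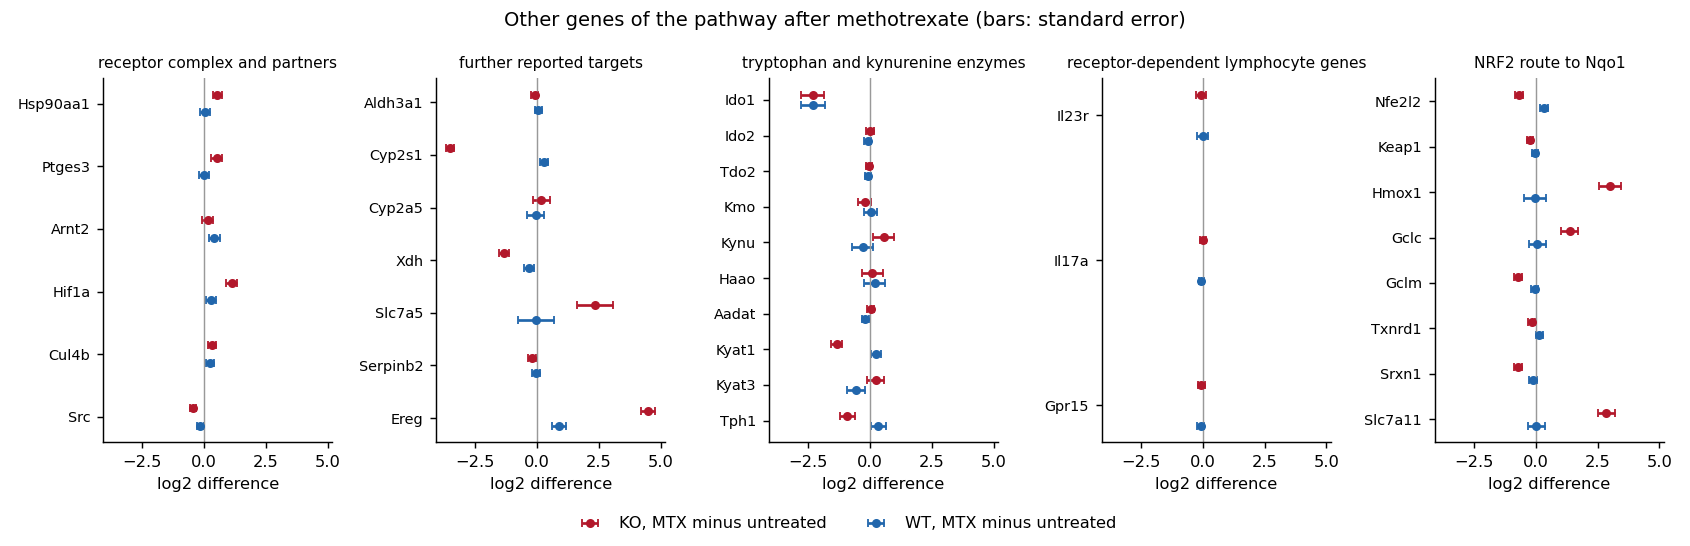
Log2 difference between methotrexate and no treatment for the other genes of the pathway, by list, in knockout mice (red, upper point) and wild-type mice (blue, lower point), with bars for limma's standard error. Cyp2s1 falls and Hmox1 and Slc7a11 rise in knockout mice while their blue points stay near 0, Ereg rises by 4.49 in knockout mice with its blue point at 0.89, and Ido1 lies near -2.3 in both.

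Likeness to a member was measured as the root mean square difference of log2 values over the 12 arrays, each gene centred on its own mean. Against Cyp1a1, whose own values spread 1.58 around their mean, the nearest genes were Bbox1 (0.66), Acaa1b (0.90), Churc1 (0.92), Aldoc (0.93) and C8g (0.93). Bbox1, which encodes the last enzyme of carnitine synthesis, averaged 3.10 in treated knockout, 6.85 in treated wild-type, 4.72 in untreated knockout and 6.03 in untreated wild-type mice. Against Cyp1b1, which spread 2.08, the nearest were the protease inhibitor gene Timp1 (0.35), the collagenase gene Mmp8 (0.36), Msln (0.40), Igfbp5 (0.40) and the bradykinin receptor gene Bdkrb1 (0.45). The neighbours of Cyp1b1 were thus closer to it than those of Cyp1a1, although Cyp1b1 spread more. All were picked from 18820 genes on these same arrays. Of all genes, 18.8% were called higher after methotrexate in knockout mice, and 0.0106% were called between untreated genotypes. How far these shares set the closeness was not tested.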

How the data were processed

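The authors deposited 1 table of log2 signals per probe set, made with RMA per the submitters' processing notes; for its version and the genome build, sources used here give none. The values of all 12 arrays were used as deposited, with no missing values. Platform annotation paired 21218 probe sets with 1 gene symbol, 1881 with several, and 12457 were unnamed. Each of 18820 genes was represented by its brightest probe set. Limma 3.58.1 in R 4.3.3 was fitted to all arrays with a mean per group (8 residual degrees of freedom), with Benjamini-Hochberg adjustment over all genes and a threshold of 0.05. The fit was tested on simulated data. The number of arrays, 3 mice per group, limits precision. P-values weigh differences against a spread between mice that is pooled over the 4 groups and drawn by limma toward that of other genes.

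Members and lists were chosen with earlier results of these data known. Adjusted p-values had been planned for members in the 2 comparisons without treated knockout arrays, but are left out, since the choice used all 4 groups. All members are named. Of each other pathway list, up to 4 called genes with the smallest p in knockout mice are named, and all called where a comparison calls 5 or fewer. Up to 3 markers per list and the 5 nearest genes are named, and other names are given for contrast. Some listed genes were not analysed here. Alternatives were quantile normalisation, median centring, leaving out dim genes (below the 25th percentile), the mean of probe sets, all probe sets, only the groups compared, the replicate block, trended robust variance, array weights, pancreatic RNA as a block (acinar mean of 8 or more) or alone, and leaving out each array.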

Additional observations from a re-analysis of the deposited data

Results flagged for a closer look

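Limma's interaction term had an adjusted p under 0.05 for 3 of 7 members, where 23.8% of all genes were called. The term was -1.52 for Cyp1a1. Its methotrexate difference in wild-type mice, 1.22, was not called, and its knockout arrays lay at the dim end, where a fall is hard to see. The term was 4.83 for Cyp1b1, which was higher after methotrexate in knockout mice, and -1.66 for Nqo1, which was lower there. The members were chosen with these values known, so the 3 are descriptions.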

How the results depend on the processing

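Of 800 values of single members in 23 alternatives, 775 moved by less than 1 SD between replicates, 25 moved further, and 0 called values changed sign. With the mean of probe sets, the Cyp1b1 change minus the Cyp1a1 change in knockout mice was 3.45 in place of 5.42. Members called in knockout mice numbered 3 in place of 2 with quantile normalisation and with array weights (Arnt in both), and between treated genotypes 4 in place of 3 with quantile normalisation (Arnt), with array weights (Cyp1a2) and with 1 array left out. Members called in wild-type mice after methotrexate numbered 1 in place of 0 with array weights and with pancreatic arrays alone, and between untreated genotypes 2 in place of 1 with array weights, and 0 to 1 with 1 array left out. All genes called in wild-type mice numbered 14, but 0 with median centring, 0 with only the groups compared, 7 with trended robust variance, 1819 with array weights, 34 with the pancreatic block, 836 with pancreatic arrays alone, and 0 to 97 with 1 array left out. Between untreated genotypes they numbered 2, but 4 with trended robust variance, 558 with array weights, 78 with pancreatic arrays alone and 1 to 6 with 1 array left out. In the interaction array weights gave 7474 in place of 4479. The cause was not tested. With the replicate block, 0 genes were called in wild-type mice and the member counts were the same in all 5 comparisons, while the interaction call of Gclm and the wild-type call of Cd7 were lost. Same-numbered arrays of different groups correlated in their deviations from the group mean at -0.49 to 0.67 (median 0.31, 18 pairs), against a median of -0.26 over 36 pairs of other numbers, and 9 of 12 arrays correlated best with an array of their own number. This hints at shared structure, but the labels state no pairing and not every same-numbered pair correlated above 0.1, so the block was kept as an alternative. Pancreatic RNA also ran with the replicate number. Replicate 1 lacked it and replicate 2 held it in every group, and replicate 3 held it in all but the treated wild type. Its part in these correlations was not tested. Except in the treated wild type, leaving out replicate 1 removed the only array of its group without pancreatic RNA. With no detection calls, differences near the dim end may be understated.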

Other observations

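Markers of other tissues in the samples were also counted. For methotrexate in knockout mice 18.8% of all genes were called higher and 16% lower. Of 6 smooth muscle genes 2 rose, Des by 0.89 ± 0.29 and Tagln by 0.68 ± 0.23. Between treated genotypes 4 of the 6 were called higher, where 20.2% of all genes were. After methotrexate in knockout mice 1 of 5 adipocyte genes was lower, Cidec (-2.02 ± 0.38). None of 9 acinar genes or 4 hepatocyte genes was called there by limma, although with pancreatic RNA as a block 1 hepatocyte gene and 2 adipocyte genes fell. The acinar genes had standard errors from 1.3 (Clps) to 3.8 (Cela3b), so a difference in them would be hard to see. The adipocyte mean was 7.28 in replicate 1 of the untreated wild type and 3.92 to 5.37 in the other 11 arrays, and Cyp1a1 in that replicate, 5.79, lay between the other 2 of its group.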
